A study of Mus musculus with 27 samples.

Results

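Integrins and laminins link a cell to its surrounding matrix. Each integrin pairs an α with a β subunit in the plasma membrane, and the α subunit largely sets whether the receptor binds laminin, collagen, proteins with an RGD motif such as fibronectin, or counter-receptors on other cells. Each laminin is a trimer of an α, a β and a γ chain and is a main scaffold of the basement membrane. In muscle, integrin α7β1 and the dystroglycan complex anchor the fiber to laminins with the α2 chain, while the basement membrane around fat cells is known for laminins with the α4 chain. The genes described here are the integrin subunits and laminin chains in the deposited expression tables, picked out by symbol (Itga, Itgb, Lama, Lamb and Lamc genes). There were 37 of them among 24825 genes, of which 18 encode integrin α subunits, 8 integrin β subunits and 11 laminin chains.

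The study asked what pro#3, the last stretch of the C-terminal proline-rich domain of the transcription factor NFIA, contributes when NFIA turns muscle precursors towards fat cells. All cells were C2C12, an established mouse myoblast line, infected with a control retrovirus, with one for FLAG-tagged full-length NFIA, or with one for Δpro#3, the mutant without pro#3. RNA was sequenced at day 0, at day 7 of an adipogenic cocktail (isobutylmethylxanthine, indomethacin and dexamethasone at first, with insulin, T3 and rosiglitazone), and at day 7 with 10 µM forskolin, an activator of adenylyl cyclase, for 4 h. The 9 groups held 3 samples each, 27 in all, and no label says that these came from separate cultures, so the p-values measure the spread between these samples, which may be technical. NFIA is expressed from a virus in these cells, far above the level of Nfia in control, which limits them as a model of the endogenous factor.

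The depth was 9567769 to 27230965 fragments per sample, with a median of 17707223. Values are FPKM, fragments scaled to the gene's exon length and to the library's total. At day 0, Nfia was at 225 to 250.2 FPKM with full-length NFIA, 397 to 423 FPKM with Δpro#3 and 0.879, 7.35 and 0.175 FPKM in control, where replicate 2 stood above the other samples. At day 7 it was at 457 to 528 FPKM with full-length NFIA and 374 to 480 FPKM with Δpro#3, which overlapped. With forskolin the constructs were at 497 to 594 and 262 to 344 FPKM, the reverse of their order at day 0. The part of these levels in the comparisons of constructs was not tested. The sum of 6 muscle markers (Myod1, Myog, Des, Acta1, Ckm and Myh3) at day 0 was 977 to 1000.0 FPKM in control, 131 to 139.8 FPKM with full-length NFIA and 374 to 381 FPKM with Δpro#3, and at day 7 it was 5151 to 5956, 1129 to 1531 and 6917 to 7164 FPKM. The sum of 6 adipocyte markers (Pparg, Fabp4, Adipoq, Cidec, Plin1 and Lpl) was 33.9 to 41.3, 391 to 425 and 302 to 321 FPKM at day 0, and 335 to 371, 13268 to 14750.1 and 602 to 1992 FPKM at day 7. Replicate 1 of Δpro#3 at day 7 stood apart, with Fabp4 at 1415, 294 and 354 FPKM in replicates 1 to 3, and so did replicate 1 of Δpro#3 with forskolin (386, 103 and 137 FPKM). With forskolin the muscle sum was 4769 to 5829 FPKM in control, 915 to 1169 FPKM with full-length NFIA and 5893 to 6867 FPKM with Δpro#3, and the adipocyte sum in that order 291 to 300.3, 12798 to 13506 and 535 to 886 FPKM. In bulk samples, fewer cells of a type and less RNA per cell cannot be told apart, and both marker sums moved with the comparisons below, where their part was not tested. Without replicate 2 of control at day 0 or replicate 1 of Δpro#3 with forskolin, no call over 3-fold changed among the integrin and laminin genes, and without replicate 1 of Δpro#3 at day 7, Lama2 was added to 1 comparison, given below.

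Genes were compared on log2(FPKM + 1), which makes the fold changes of genes with low FPKM smaller than those of FPKM itself. A gene was called higher or lower at an adjusted p under 0.05 (limma, Benjamini-Hochberg over all genes tested) and a change of over 3-fold, and only such genes are said to have risen or fallen. Of the 37 genes, 24 passed the minimum mean of 0.5 FPKM at every time point, 4 at some time points (Itga8, Itgae, Itgb4 and Itgb7) and 9 at none. Some passed through 1 group alone, the other groups being under the minimum on average, so that a difference from that group was given by the filter. These were Itga4 at every time point, Lamb3 at day 0 and Itga8 with forskolin (through control), Itga1 and Itgae at day 7 and Itga1 with forskolin (through full-length NFIA) and Itgb7 with forskolin (through Δpro#3), and in the fit of day 0 with day 7 Itga8 (through control at day 7). In the fit of day 7 with and without forskolin, Itgb7 passed through Δpro#3 with forskolin alone. In the 9 comparisons between constructs, 11 of the 28 genes tested were called at least once, where 13.7% of all genes were, namely Itga1, Itga3, Itga4, Itga8, Itga10, Itgb7, Lama2, Lama4, Lamb2, Lamb3 and Lamc1.

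At day 0, before the cocktail, full-length NFIA cells differed from control cells in transcripts of collagen receptor subunits, a laminin α chain, a laminin β chain and an integrin β subunit. Itga1 and Lama4 were higher than in control, and Itga10, Lamb3 and Itgb7 were lower. That is 2 of the 26 genes tested called higher, where 2.46% of all genes were, and 3 called lower, where 2.78% of all genes were. Lamb3 was tested at day 0 through control alone. The median log2 fold change was -0.43 over the 26 genes and 0.01 over all genes. With Δpro#3, 1 gene (Itga10) was lower than in control and none was higher, where 1.32% of all genes were lower and 0.859% higher, and the medians were near 0 over both the 26 genes and all genes. Both constructs share the control samples, so their values are given side by side.

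Itga1 encodes α1, a collagen receptor subunit that prefers collagen IV of the basement membrane (chromosome 13, 115748287 to 115892172, minus strand, mm9). At day 0 it was at 0.0775, 0.0921 and 0.0576 FPKM in control, 7.73, 8.25 and 8.18 FPKM with full-length NFIA and 1.11, 0.952 and 0.922 FPKM with Δpro#3. The 3 groups did not overlap, with full-length NFIA highest and the control level resting on 35 fragments in all. The log2 fold change over control was 3.07 ± 0.06 (SE) with full-length NFIA (adjusted p = 5.59e-12) and 0.89 ± 0.06 with Δpro#3, which is under 3-fold. With a pseudocount of 0.1 in place of 1, the value for Δpro#3 was 2.64, and by limma-voom it was 3.67, and both were called. Compared with full-length NFIA, Δpro#3 cells were at -2.18 ± 0.06 (adjusted p = 2.10e-10). Pelo, which overlaps Itga1 on the same strand, was at 6.004 to 13.03 FPKM in the 27 samples, and its part in the Itga1 values was not tested.

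Itga10 encodes α10, a collagen receptor subunit best known from cartilage (chromosome 3, 96449507 to 96468442, plus strand, mm9). At day 0 it was at 14, 12.8 and 14.3 FPKM in control, 0.433, 0.511 and 0.561 FPKM with full-length NFIA and 1.8, 1.48 and 1.94 FPKM with Δpro#3. Every sample with a construct was below every control sample, and full-length NFIA was the lower of both. The log2 fold changes against control were -3.29 ± 0.07 (adjusted p = 1.94e-11) with full-length NFIA and -2.43 ± 0.07 (adjusted p = 5.00e-10) with Δpro#3. Itga11, also a collagen receptor subunit, was at 1.85 ± 0.27, 1.63 ± 0.093 and 2.37 ± 0.29 FPKM in control, full-length NFIA and Δpro#3 cells (SD, n = 3) and was not called at day 0. Of the summed FPKM of Itga1, Itga2, Itga10 and Itga11 at day 0, Itga10 held 87.7% ± 1 in control and Itga1 0.49% ± 0.14 (SD, n = 3). With full-length NFIA the shares were 4.86% ± 0.42 for Itga10 and 78.2% ± 1.4 for Itga1, and with Δpro#3 they were 33.7% ± 2.4 and 19.4% ± 2.7.

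Lama4 encodes the laminin α4 chain of fat cell and vessel basement membranes (chromosome 10, 38685321 to 38829994, plus strand, mm9). At day 0 it was at 5.08, 5.14 and 5.48 FPKM in control, 23.7, 25 and 24.5 FPKM with full-length NFIA and 7.58, 7.72 and 7.33 FPKM with Δpro#3. Full-length NFIA samples were above all others, and Δpro#3 samples lay just above control. The log2 fold change over control was 2.03 ± 0.04 (adjusted p = 8.06e-12) with full-length NFIA and 0.45 ± 0.04 with Δpro#3. Δpro#3 against full-length NFIA gave -1.57 ± 0.04, just under 3-fold, and passed that limit without replicate 1 of full-length NFIA (-1.59) or replicate 2 of Δpro#3 (-1.59).

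Lamb3 encodes the β3 chain, known from the laminin of epithelia (chromosome 1, 195128151 to 195170072, plus strand, mm9). At day 0 it was at 3.31, 3.15 and 3.37 FPKM in control, 0.178, 0.2 and 0.276 FPKM with full-length NFIA and 0.625, 0.547 and 0.611 FPKM with Δpro#3. Both constructs were below control with no overlap, and Lamb3 passed the minimum of 0.5 FPKM at day 0 through control alone (the other groups averaged 0.406 FPKM). The log2 fold change was -1.81 ± 0.06 (adjusted p = 3.68e-10) with full-length NFIA and -1.42 ± 0.06 with Δpro#3, which is under 3-fold on this scale. With a pseudocount of 0.1 the value for Δpro#3 was -2.28 and by limma-voom on fragments -2.45, and both were called. The epithelial markers Epcam, Cdh1, Krt5 and Krt14 summed to 1.47 to 1.71 FPKM in control, 9.64 to 10.9 FPKM with full-length NFIA and 6.65 to 6.95 FPKM with Δpro#3 at day 0, opposite in order to Lamb3. Of these, Epcam was at 0 in the full-length NFIA samples.

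Itgb7 encodes β7, a subunit of lymphocyte homing receptors (chromosome 15, 102046426 to 102062366, minus strand, mm9), and the constructs lay on either side of control. At day 0 it was at 4.15, 4.2 and 3.75 FPKM in control, 0.496, 0.548 and 0.76 FPKM with full-length NFIA and 7.32, 6.39 and 7.59 FPKM with Δpro#3. The 3 groups did not overlap, with Δpro#3 highest. Against control, the log2 fold change was -1.65 ± 0.08 (adjusted p = 7.73e-09) with full-length NFIA and 0.68 ± 0.08 with Δpro#3. Δpro#3 against full-length NFIA was 2.34 ± 0.08 (adjusted p = 1.37e-09). In that comparison 1 gene (Itgb7) was higher and 1 (Itga1) lower, where 0.925% and 1.12% of all genes were. The leukocyte genes Ptprc, Adgre1 and Cd3e were at 0 to 0.159 FPKM in all 27 samples. With Cd68, Csf1r, Lyz2 and Itgb2 added, the 7 leukocyte markers summed to 2.92 to 3.32 FPKM in control, 13.4 to 13.6 FPKM with full-length NFIA and 8.32 to 8.82 FPKM with Δpro#3 at day 0, and their part in Itgb7 was not tested.

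**Figure D1:**
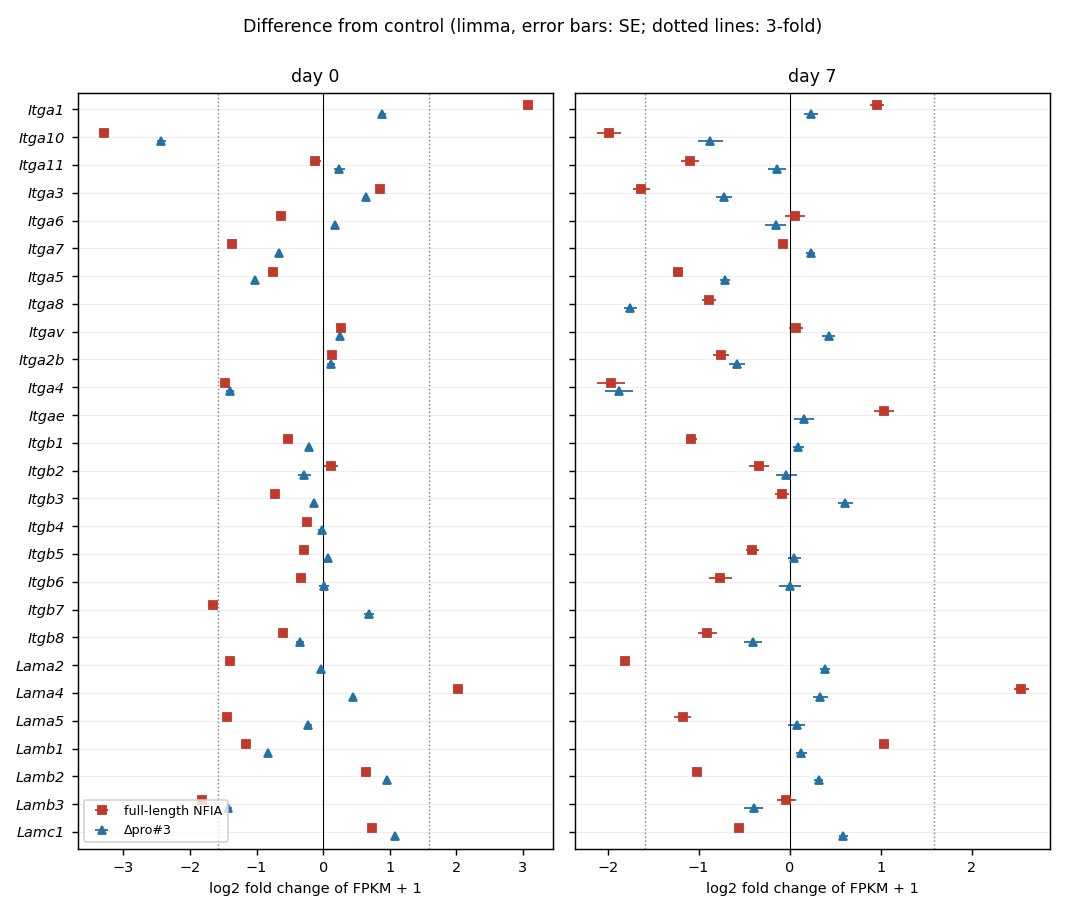
Log2 fold change of FPKM + 1 against control for integrin and laminin genes, with full-length NFIA (red squares) and Δpro#3 (blue triangles), at day 0 (left) and day 7 (right). Horizontal bars are standard errors and dotted lines mark 3-fold. Lama4 with full-length NFIA lies beyond the limit on both days (2.03 and 2.55), while with Δpro#3 it lies at 0.45 and 0.33.

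The promoters of the called genes were searched on both strands for TTGGCA, the core of the site bound by NFI proteins, and for CAGCTG, an E-box bound by myogenic factors. RefSeq promoters (GRCm38.p6), each with 250 bases before the start and 50 after, were matched for 23 of the 37 genes (26 entries) and for 10 of the 13 genes called between constructs or days (12 entries). TTGGCA was in 3 of the 26 entries (Itgax, Lama2 and Lamb3), 2 of the 12 of called genes, and in 14.1% of all 32851 promoters. CAGCTG was in 8 of the 26 (Itga1, Itga2b, Itga4, Itga5, Itga9, Itgax, Itgb5 and Lamb3), 3 of the 12 of called genes, and in 16.3% of all. The 250 bases before the start are shown for 5 of the called genes, 5′ to 3′ on the strand of the gene with motif matches in capitals. They are the 4 called genes with a match, and Itga10, which was called with both constructs at day 0. The windows are Itga10 at chr3:96645334-96645583 (plus), Itga1 at chr13:115101965-115102214 (minus), Itga4 at chr2:79255176-79255425 (plus), Lama2 at chr10:27616943-27617192 (minus) and Lamb3 at chr1:193301744-193301993 (plus).
Itga10: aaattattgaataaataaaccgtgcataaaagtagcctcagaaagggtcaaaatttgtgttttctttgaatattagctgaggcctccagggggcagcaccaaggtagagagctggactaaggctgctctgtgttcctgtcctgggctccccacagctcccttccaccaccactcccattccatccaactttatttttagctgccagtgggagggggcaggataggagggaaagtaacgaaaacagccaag
Itga1: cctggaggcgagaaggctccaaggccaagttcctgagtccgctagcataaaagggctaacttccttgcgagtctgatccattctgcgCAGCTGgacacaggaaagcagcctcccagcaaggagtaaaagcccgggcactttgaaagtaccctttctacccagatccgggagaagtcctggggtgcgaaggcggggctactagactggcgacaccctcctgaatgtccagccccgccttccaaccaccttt
Itga4: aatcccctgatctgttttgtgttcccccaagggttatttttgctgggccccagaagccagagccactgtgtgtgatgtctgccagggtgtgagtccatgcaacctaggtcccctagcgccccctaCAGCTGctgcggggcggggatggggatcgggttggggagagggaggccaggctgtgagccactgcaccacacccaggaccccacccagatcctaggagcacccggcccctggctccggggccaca
Lama2: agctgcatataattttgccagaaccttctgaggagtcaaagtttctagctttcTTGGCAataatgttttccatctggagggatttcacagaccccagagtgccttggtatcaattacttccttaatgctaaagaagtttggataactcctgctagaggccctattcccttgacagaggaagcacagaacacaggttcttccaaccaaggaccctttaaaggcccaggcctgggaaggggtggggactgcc
Lamb3: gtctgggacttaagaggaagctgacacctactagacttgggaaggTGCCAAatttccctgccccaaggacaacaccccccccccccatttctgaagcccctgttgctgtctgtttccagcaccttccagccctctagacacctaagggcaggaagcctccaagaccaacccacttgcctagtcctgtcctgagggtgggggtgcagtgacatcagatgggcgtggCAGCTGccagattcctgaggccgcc
With -1 as the base before the start, CAGCTG lay at -163 in Itga1, -125 in Itga4 and -25 in Lamb3, TTGGCA at -197 in Lama2 and its reverse complement at -205 in Lamb3. The 250 bases of Itga10 held neither, which says only that these letters are not in this window. The matches overlap no other motif searched.

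The abundant integrin subunits differed by less than 3-fold at day 0. Itgb1, the β partner of most laminin and collagen receptors, was at 331, 321 and 314 FPKM in control, 219, 225 and 226 FPKM with full-length NFIA and 275, 286 and 275 FPKM with Δpro#3. Itga7, the laminin receptor subunit of skeletal muscle, was at 192, 190.2 and 198 FPKM in control, 74.6, 75.4 and 72.3 FPKM with full-length NFIA and 122, 121 and 122 FPKM with Δpro#3. For both genes control was highest, Δpro#3 between and full-length NFIA lowest, with no overlap. The log2 fold changes with full-length NFIA and Δpro#3 were -0.53 ± 0.03 and -0.21 ± 0.03 for Itgb1 and -1.37 ± 0.03 and -0.66 ± 0.03 for Itga7.

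Itga5, the fibronectin receptor subunit, was at 144, 150.04 and 147 FPKM in control, 87.3, 85.9 and 87.7 FPKM with full-length NFIA and 72.5, 72.3 and 71.5 FPKM with Δpro#3 at day 0. Here Δpro#3 was the lowest group, with log2 fold changes of -1.02 ± 0.03 for Δpro#3 and -0.75 ± 0.03 for full-length NFIA. Itga6, a laminin receptor subunit of epithelia and many progenitor cells, was at 18.6, 19.1 and 18.7 FPKM in control, 11.4, 12.4 and 11.6 FPKM with full-length NFIA and 21.1, 21.9 and 21.5 FPKM with Δpro#3, lowest with full-length NFIA and highest with Δpro#3. Itga3, a further laminin receptor subunit, was at 44.4, 48.3 and 46.2 FPKM in control, 85.2, 86.8 and 82.3 FPKM with full-length NFIA and 73.2, 72.1 and 72.6 FPKM with Δpro#3. Both constructs lay above control for Itga3, with 0.86 ± 0.03 and 0.64 ± 0.03. Of the summed FPKM of Itga3, Itga6 and Itga7, Itga7 held 74.8% ± 0.87 in control, 43.4% ± 0.21 with full-length NFIA and 56.4% ± 0.092 with Δpro#3 (SD, n = 3).

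The other laminin chains with high levels differed by less than 3-fold at day 0. Lama2, the α2 chain of muscle, was at 14.8, 15.4 and 15.7 FPKM in control, 5.05, 5.26 and 5.24 FPKM with full-length NFIA and 15, 14.9 and 14.9 FPKM with Δpro#3. The mutant overlapped control and full-length NFIA lay below both, at -1.40 ± 0.03 for full-length NFIA and -0.03 ± 0.03 for Δpro#3. Lamc1, the γ1 chain of most laminins, was at 44, 47.7 and 47.4 FPKM in control, 77.2, 76.6 and 78.3 FPKM with full-length NFIA and 101, 97.9 and 98.2 FPKM with Δpro#3, with both constructs above control. Lamb2, a β chain of mature basement membranes, was at 44.3, 48.1 and 48.2 FPKM in control, 73.4, 76.5 and 70.8 FPKM with full-length NFIA and 95.6, 88.3 and 92.1 FPKM with Δpro#3, in the same order as Lamc1. Lamb1, the more widespread β chain, was lower in both constructs, at 81 ± 1.6 FPKM in control, 35.9 ± 1.1 with full-length NFIA and 45 ± 0.66 with Δpro#3 (SD, n = 3), though within 3-fold. Lamb1 held 61.8% ± 1.3 of the summed β chains in control, 32.7% ± 0.24 with full-length NFIA and 32.7% ± 0.59 with Δpro#3.

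**Figure D2:**
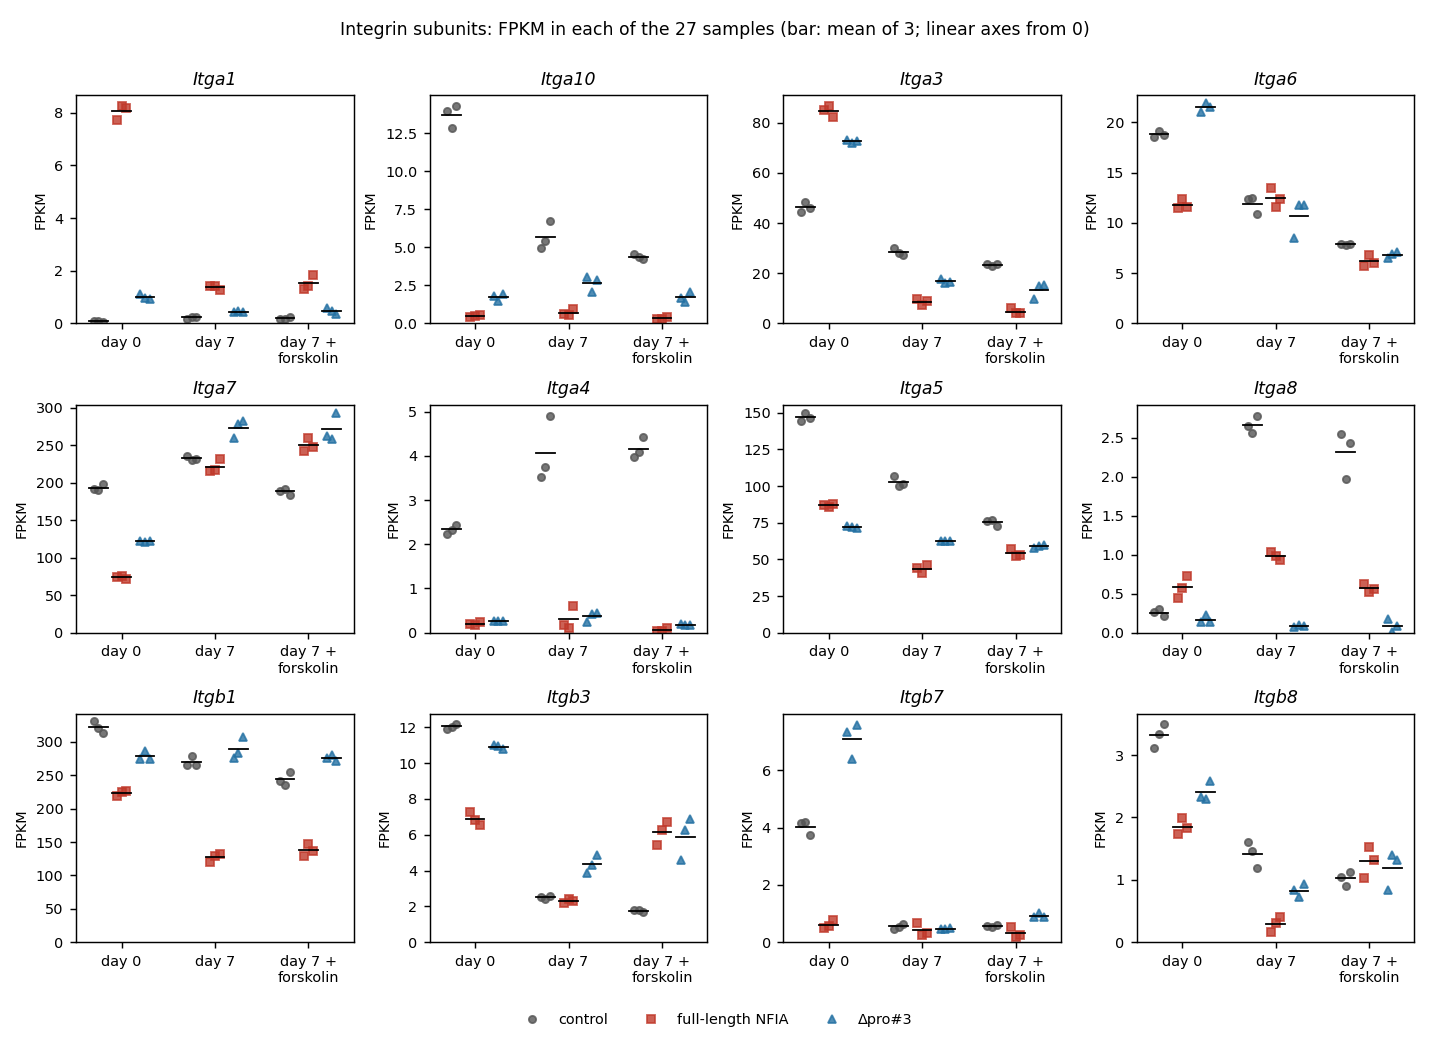
FPKM of 12 integrin subunits in each of the 27 samples by time point, with control (grey circles), full-length NFIA (red squares) and Δpro#3 (blue triangles). Black bars are means of 3 samples and each linear axis starts at 0. Itga1 with full-length NFIA at day 0 stands above all other samples (7.73 to 8.25 FPKM), and Itga4 is highest in the control samples at each time point.

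At day 7, full-length NFIA cells differed from control in the laminin α chains in opposite directions. Lama4 was higher, and Lama2, Itga3, Itga4 and Itga10 were lower. That is 1 of the 26 genes tested higher and 4 lower, where 4.87% and 3.3% of all genes were. Itga4 was tested at day 7 through control alone. The median log2 fold change was -0.67 over the 26 genes and -0.08 over all genes. With Δpro#3 none was higher and 2 were lower than in control (Itga4 and Itga8), where 0.933% and 0.503% of all genes were, and the median was 0.06 over the 26 genes and -0.04 over all. Δpro#3 cells had 1 gene (Lama2) higher and 1 (Lama4) lower than full-length NFIA cells, where 2.6% and 3.7% of all genes were.

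Lama4 at day 7 was at 12.9, 12.2 and 11.2 FPKM in control, 75.9, 77.7 and 72.9 FPKM with full-length NFIA and 17.7, 14.1 and 15 FPKM with Δpro#3. Full-length NFIA samples lay far above the rest, and the highest Δpro#3 sample was replicate 1, which also held the most Fabp4. The log2 fold change over control was 2.55 ± 0.08 (adjusted p = 1.93e-09) with full-length NFIA and 0.33 ± 0.08 with Δpro#3, and Δpro#3 against full-length NFIA gave -2.21 ± 0.08 (adjusted p = 8.30e-09). Lama2 (chromosome 10, 26701094 to 27336748, minus strand, mm9) was at 34.8, 37.2 and 34 FPKM in control, 8.94, 9.1 and 10.02 FPKM with full-length NFIA and 45.1, 46.2 and 48.2 FPKM with Δpro#3. The 3 groups were separate, with Δpro#3 highest and full-length NFIA lowest. The log2 fold change against control was -1.81 ± 0.06 (adjusted p = 2.00e-09) with full-length NFIA and 0.39 ± 0.06 with Δpro#3, and Δpro#3 against full-length NFIA gave 2.20 ± 0.06 (adjusted p = 1.11e-09).

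The summed FPKM of the 5 laminin α chains at day 7 was 84.4 ± 3.9 in control, 101 ± 1.4 with full-length NFIA and 100.4 ± 1.6 with Δpro#3 (SD, n = 3), so the constructs differed in composition more than in total. Lama4 was 75% ± 2.6 of the sum with full-length NFIA, 14.4% ± 0.88 in control and 15.5% ± 2.1 with Δpro#3. Lama2 was 9.29% ± 0.53, 41.9% ± 0.47 and 46.3% ± 0.95 in the same order, and most of the rest was Lama5, the α5 chain. Of the β chains, Lamb1 was 84.2% ± 0.48 with full-length NFIA, 56.6% ± 1.6 in control and 53.8% ± 1.5 with Δpro#3. These are shares of transcript level per length, not of assembled trimers.

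**Figure D3:**
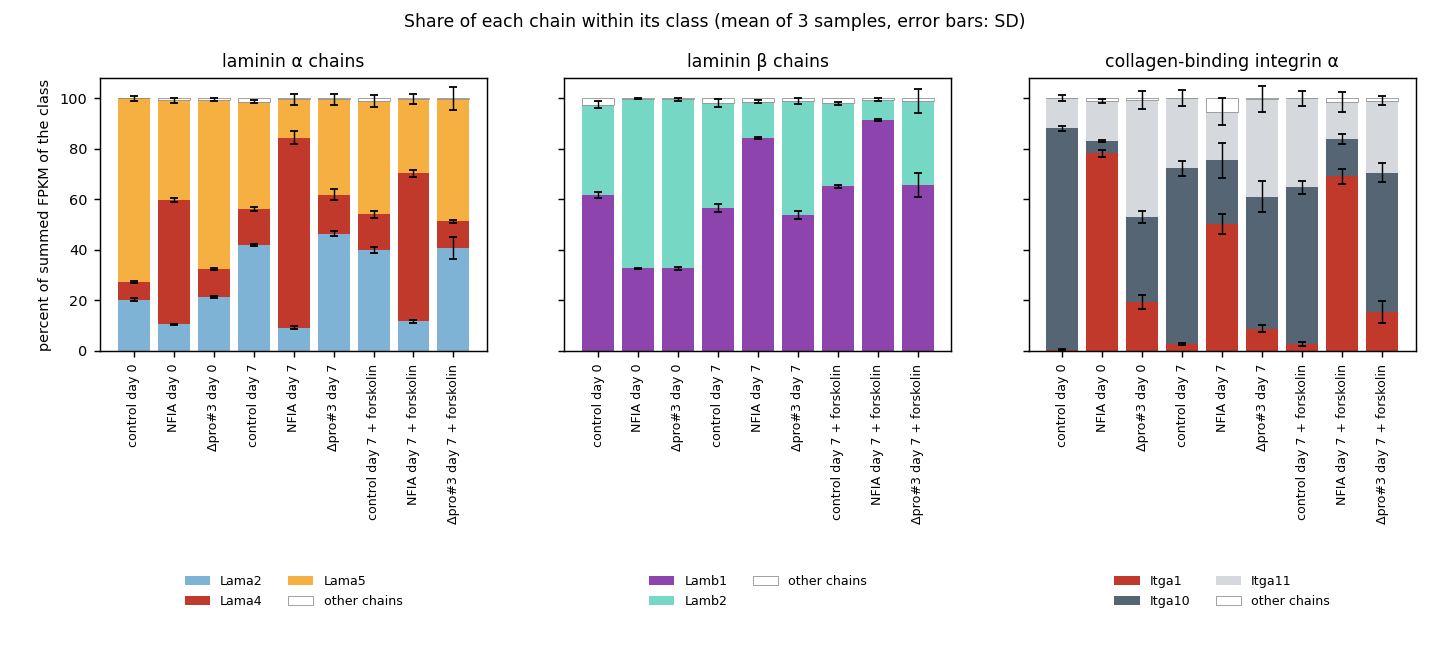
Percent of the summed FPKM of each class held by its main chains, as the mean of 3 samples per group with SD, for laminin α chains, laminin β chains and collagen-binding integrin α subunits. The Lama4 share with full-length NFIA is 49.4% at day 0, 75% at day 7 and 58.5% with forskolin, above the other 6 groups.

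Itga4 at day 7 was below control with both constructs. It encodes α4, which binds VCAM1 and fibronectin (chromosome 2, 79095583 to 79173280, plus strand, mm9), and was at 3.51, 3.74 and 4.91 FPKM in control, 0.181, 0.109 and 0.614 FPKM with full-length NFIA and 0.252, 0.413 and 0.437 FPKM with Δpro#3. Both constructs were below every control sample and overlapped each other, and the gene passed the minimum through control alone (the constructs averaged 0.334 FPKM). The log2 fold changes were -1.97 ± 0.15 (adjusted p = 1.11e-06) with full-length NFIA and -1.88 ± 0.15 (adjusted p = 1.01e-05) with Δpro#3, and 0.09 ± 0.15 between them. At day 0 Itga4 was at 2.24, 2.33 and 2.44 FPKM in control, 0.206, 0.169 and 0.234 FPKM with full-length NFIA and 0.265, 0.269 and 0.263 FPKM with Δpro#3. There too it passed through control alone, and its day 0 values of -1.47 ± 0.06 and -1.40 ± 0.06 were under 3-fold. Adding 0.1 FPKM in place of 1 gave -3.01 and -2.74, and both were called.

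Itga8, the α8 subunit that binds nephronectin (chromosome 2, 12028259 to 12223547, minus strand, mm9), was at 2.65, 2.56 and 2.79 FPKM in control, 1.04, 0.98 and 0.929 FPKM with full-length NFIA and 0.0756, 0.101 and 0.087 FPKM with Δpro#3 at day 7. The groups were separate, with Δpro#3 near 0. The log2 fold change was -1.75 ± 0.07 (adjusted p = 1.58e-07) with Δpro#3 and -0.89 ± 0.07 with full-length NFIA. Itga3 (chromosome 11, 94905788 to 94938115, minus strand, mm9) was at 29.9, 28 and 27.3 FPKM in control, 9.63, 7.27 and 8.75 FPKM with full-length NFIA and 17.8, 16.1 and 16.4 FPKM with Δpro#3, so the order of the groups was the reverse of day 0. The value for full-length NFIA was -1.63 ± 0.09 (adjusted p = 7.48e-08) and fell within 3-fold after median-ratio scaling (-1.53) or without its replicate 2 (-1.53), and for Δpro#3 it was -0.73 ± 0.09. Itga10 was at 4.96, 5.39 and 6.72 FPKM in control, 0.581, 0.559 and 0.92 FPKM with full-length NFIA and 3.03, 2.06 and 2.87 FPKM with Δpro#3, still lowest with full-length NFIA (-1.99 ± 0.14, adjusted p = 4.50e-07), and Δpro#3 lay between at -0.87 ± 0.14.

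Of the abundant integrins at day 7, Itgb1 was at 266, 279 and 266 FPKM in control, 119.99, 129 and 132 FPKM with full-length NFIA and 276, 283 and 307 FPKM with Δpro#3. Full-length NFIA lay below the other groups, which overlapped, with -1.08 ± 0.06 for full-length NFIA and 0.09 ± 0.06 for Δpro#3. Itga5 was at 107, 100.3 and 102 FPKM in control, 44.3, 40.4 and 46 FPKM with full-length NFIA and 62.3, 62.9 and 62.5 FPKM with Δpro#3, lower in both constructs but within 3-fold (-1.22 ± 0.06 and -0.71 ± 0.06). Itga7 was at 235, 231 and 232 FPKM in control, 215, 218 and 232 FPKM with full-length NFIA and 259.6, 278 and 282 FPKM with Δpro#3, and its log2 fold change with full-length NFIA was -0.07 ± 0.05 as deposited and 0.03 after median-ratio scaling, so no direction is given. Itga6 overlapped between all groups, at 12.4, 12.5 and 10.9 FPKM in control, 13.5, 11.6 and 12.4 FPKM with full-length NFIA and 8.52, 11.8 and 11.8 FPKM with Δpro#3. Lamc1 was at 65.6, 66.4 and 62 FPKM in control, 43.8, 43.2 and 44.2 FPKM with full-length NFIA and 96, 98.1 and 99.7 FPKM with Δpro#3, with Δpro#3 above and full-length NFIA below control (0.59 ± 0.05 and -0.55 ± 0.05).

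The ratio of laminin to fibronectin receptor subunits was examined because adipocyte formation has been linked to a move from α5 to α6, and myotube formation to α7. The log2 ratio of Itga6 to Itga5 (each as FPKM + 1) at day 0 was -2.90 ± 0.01 in control, -2.78 ± 0.07 with full-length NFIA and -1.70 ± 0.03 with Δpro#3 (SD, n = 3). At day 7 it was -3.01 ± 0.10, -1.73 ± 0.08 and -2.45 ± 0.24, while Itga6 itself overlapped between the groups. The log2 ratio of Itga7 to Itga5 was 0.39 ± 0.05, -0.23 ± 0.05 and 0.75 ± 0.02 at day 0 and 1.17 ± 0.03, 2.32 ± 0.07 and 2.11 ± 0.06 at day 7, so that full-length NFIA cells were lowest at day 0 and highest at day 7. With forskolin the log2 ratio of Itga6 to Itga5 was -3.11 ± 0.05, -2.94 ± 0.17 and -2.93 ± 0.03 in the same order, so that full-length NFIA cells stood 0.16 above control, against 1.28 at day 7 without it. That of Itga7 to Itga5 was 1.31 ± 0.01, 2.19 ± 0.11 and 2.19 ± 0.08, and the constructs overlapped. With 3 against 3 samples the 2-sided exact permutation test cannot go below p = 0.1, and 11 of the 12 tests of a construct against control stood at that p (0.109 after adjustment over the 12). The exception was Itga6 to Itga5 with full-length NFIA under forskolin (exact p = 0.2).

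**Figure D4:**
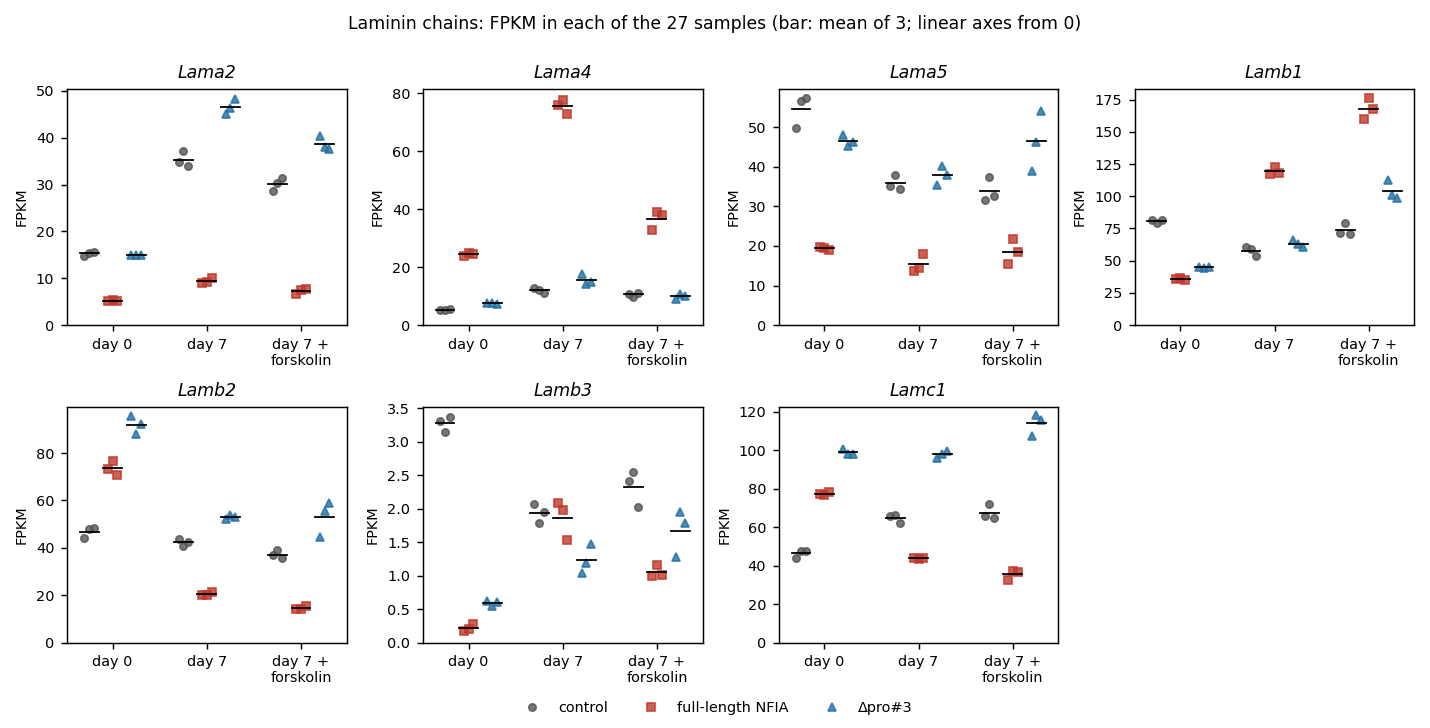
FPKM of 7 laminin chains in each of the 27 samples by time point, with control (grey circles), full-length NFIA (red squares) and Δpro#3 (blue triangles). Black bars are means of 3 samples and each linear axis starts at 0. Lama2 with full-length NFIA stays at 5.05 to 10.02 FPKM over all time points, whereas Lama4 with full-length NFIA is above the other samples at each time point.

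From day 0 to day 7, the β subunits Itgb3 and Itgb7 fell in control cells, and none of the 27 genes tested was higher (2 lower, where 3.05% of all genes were lower and 3.65% higher). Itgb3, the β3 subunit of the vitronectin receptor (chromosome 11, 104469370 to 104531790, plus strand, mm9), went from 11.9, 12 and 12.2 FPKM to 2.51, 2.41 and 2.57 FPKM, a log2 fold change of -1.90 ± 0.06 (adjusted p = 2.99e-14). Itgb7 went to 0.466, 0.533 and 0.638 FPKM (-1.70 ± 0.10, adjusted p = 6.57e-11). Within 3-fold, Itga8 stood at 1.54 ± 0.07 (called with a pseudocount of 0.1, at 2.96), Lama2 at 1.16 ± 0.05 and Lama4 at 1.07 ± 0.07.

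With full-length NFIA, 2 of the 27 genes were higher at day 7 than at day 0 (Lamb1 and Lama4) and 3 were lower (Itga3, Itga1 and Lamb2), where 5.38% and 4.71% of all genes were. Lamb1 (chromosome 12, 31950099 to 32014509, plus strand, mm9) went from 36.1, 36.9 and 34.8 FPKM to 117, 123 and 118 FPKM (1.71 ± 0.04, adjusted p = 1.62e-15), while in control it went from 81.9, 79.2 and 81.9 FPKM to 60.4, 58.9 and 53.9 FPKM. Lama4 rose by 1.59 ± 0.07 (adjusted p = 6.84e-13), at the limit, and was within 3-fold without replicate 1 of day 0 (1.57) or replicate 2 of day 7 (1.57). Itga3 fell by 3.17 ± 0.07 on the log2 scale (adjusted p = 1.95e-16). Itga1 at day 7 was at 1.43, 1.41 and 1.27 FPKM (-1.93 ± 0.06, adjusted p = 8.44e-15), still above control at 0.176, 0.248 and 0.242 FPKM. Lamb2 (chromosome 9, 108382193 to 108392861, plus strand, mm9) was at 20.1, 20.1 and 21.3 FPKM at day 7, a fall of 3-fold or more from day 0 (-1.80 ± 0.04, adjusted p = 9.28e-16). Itga7, at 1.57 ± 0.04, was just under 3-fold and passed it after median-ratio scaling (1.72) or without replicate 1 of day 7 (1.59).

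Δpro#3 cells had none of the 27 genes higher and 2 lower at day 7 (Itgb7 and Itga3), where 3.91% and 2.93% of all genes were. Itgb7 reached 0.463, 0.443 and 0.507 FPKM (-2.46 ± 0.10, adjusted p = 6.85e-13) and was then at 0.664, 0.236 and 0.327 FPKM with full-length NFIA, and the groups that were separate at day 0 overlapped. Itga3 changed by -2.05 ± 0.07 (adjusted p = 7.96e-14). Lama2, at 1.57 ± 0.05, was just under 3-fold and passed it after median-ratio scaling (1.70) or without replicate 1 of Δpro#3 at day 7 (1.60).

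**Figure D5:**
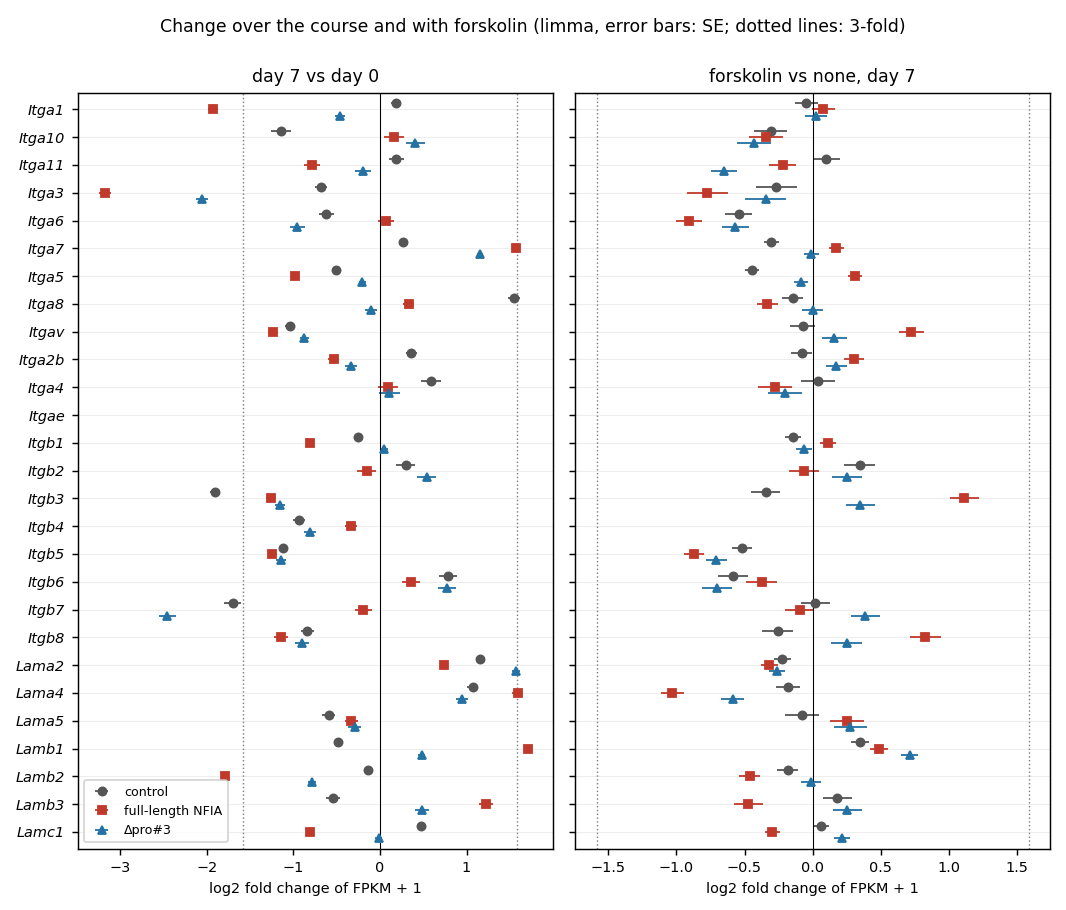
Log2 fold change of FPKM + 1 from day 0 to day 7 (left) and with forskolin at day 7 (right) in control (grey circles), full-length NFIA (red squares) and Δpro#3 (blue triangles). Horizontal bars are standard errors, dotted lines mark 3-fold, and both panels have their own horizontal range. Lamb1 is at 1.71 with full-length NFIA and -0.48 in control on the left, and no point passes the limit on the right.

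Whether the difference of a construct from control itself differed between the days was tested as an interaction in the 18 samples of day 0 and day 7. For full-length NFIA, 26 of the 27 genes passed an adjusted p of 0.05, where 71.2% of all genes did, and Itgb5, which encodes β5, was the exception (-0.12 ± 0.07), and passed without replicate 1 of Δpro#3 at day 7, which shares the fit. The 3 largest were Itga3 (-2.49 ± 0.10), Lamb1 (2.19 ± 0.06) and Itga1 (-2.12 ± 0.08). Some values against control had opposite signs on the days. Lamb1 was at -1.15 ± 0.03 at day 0 and 1.04 ± 0.06 at day 7, Lamb2 at 0.64 ± 0.04 and -1.01 ± 0.05, and Lamc1 at 0.73 ± 0.03 and -0.55 ± 0.05. For Δpro#3, 19 of the 27 genes passed, where 44.7% of all genes did, and the 3 largest were Itga8 (-1.64 ± 0.10, which was tested here only through control at day 7, the other 5 groups averaging 0.415 FPKM), Itga10 (1.55 ± 0.16) and Itga3 (-1.36 ± 0.10). The interaction of Lama4 was 0.52 ± 0.09 with full-length NFIA and -0.12 ± 0.09 with Δpro#3, and the latter did not pass except without replicate 1 of Δpro#3 at day 7 (-0.21).

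Forskolin for 4 h at day 7 called none of the 26 genes tested in any of the cells (limma), where 0.392% of all genes were called in control, 0.743% with full-length NFIA and 0.588% with Δpro#3. At an unadjusted p under 0.05 (limma), 14 of the 26 genes were counted in control, 21 with full-length NFIA and 18 with Δpro#3, where 32%, 60.1% and 45.3% of all genes were. By limma-voom on fragments, 0, 2 and 0 were called, where 0.906%, 1.79% and 1.51% of all genes were. The pair was Itgb8 (2.12 ± 0.32) and Itga4 (-1.86 ± 0.64) with full-length NFIA. Itga4 was near 0 in those cells, with means of 0.301 FPKM without forskolin and 0.0611 FPKM with it. Lama4 with full-length NFIA was at 32.8, 39 and 37.9 FPKM after forskolin, below every sample without it (-1.03 ± 0.09). Itgb3 with full-length NFIA was at 5.45, 6.24 and 6.73 FPKM after forskolin and 2.19, 2.39 and 2.3 FPKM without (1.11 ± 0.11), while in control it was at 1.77, 1.8 and 1.69 FPKM and 2.51, 2.41 and 2.57 FPKM (-0.34 ± 0.11).

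The response to forskolin differed from that of control at an adjusted p under 0.05 for 11 of the 26 genes with full-length NFIA, where 30.6% of all genes did, and for 5 with Δpro#3, where 4.97% did. Those 5 became 3 without replicate 1 or 2 of control at day 7 or without replicate 1 or 3 of control with forskolin. In those fits 3.17% to 3.9% of all genes passed. Among the genes that passed, the 3 largest with full-length NFIA were Itgb3 (1.46 ± 0.15), Itgb8, which encodes a partner of αv (1.08 ± 0.16), and Lama4 (-0.85 ± 0.12). With Δpro#3 they were Itga11 (-0.75 ± 0.14), Itgb3 (0.69 ± 0.15) and Lamb1 (0.36 ± 0.09), which no longer passed without any 1 of 5 samples (those 4 and replicate 3 of Δpro#3 at day 7, adjusted p = 0.0586 to 0.0800 by limma).

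Under forskolin, full-length NFIA cells had Lama4 higher than control (1.70 ± 0.08, adjusted p = 1.47e-08) and Itga4, Itga3, Itga10 and Lama2 lower (-2.28 ± 0.08, -2.13 ± 0.17, -2.02 ± 0.10 and -1.91 ± 0.07). That is 1 of 26 higher and 4 lower, where 4.25% and 3.77% of all genes were. Itga4 was tested here through control alone, so its difference from control was given by the filter. The median over all genes was -0.17 here, and median-ratio scaling brought it near 0. It was also over 0.1 from 0 from day 0 to day 7 with full-length NFIA (-0.11) and Δpro#3 (-0.11), for forskolin with full-length NFIA (-0.15, and -0.10 relative to control) and for Δpro#3 against full-length NFIA under forskolin (0.12). With Δpro#3, none was higher than control and 2 were lower, both tested through control alone, where 0.866% and 0.685% of all genes were. They were Itga4 (-2.12 ± 0.08) and Itga8 (-1.60 ± 0.09), and Itga8 was within 3-fold after median-ratio scaling (-1.55) and without replicate 1 (-1.55) or 3 (-1.58) of control or replicate 2 of Δpro#3 (-1.55).

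Compared with full-length NFIA under forskolin, Δpro#3 cells had Lama2 (2.26 ± 0.07), Lamb2 (1.78 ± 0.09) and Lamc1 (1.66 ± 0.07) higher and Lama4 (-1.77 ± 0.08) lower. That is 3 of 26 higher and 1 lower, where 2.89% and 3.31% of all genes were, and Lamc1 was within 3-fold after median-ratio scaling (1.52). Lamc1 (chromosome 1, 155066052 to 155179916, minus strand, mm9) was at 65.7, 72.2 and 64.8 FPKM in control, 32.6, 37.3 and 36.5 FPKM with full-length NFIA and 107, 118 and 116 FPKM with Δpro#3. Lamb2 was at 37, 39 and 35.5 FPKM in control, 14.3, 14.1 and 15.4 FPKM with full-length NFIA and 44.5, 55.3 and 59.1 FPKM with Δpro#3. Both chains were highest with Δpro#3 and lowest with full-length NFIA, with no overlap.

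The other genes were low or differed within 3-fold in each single comparison on log2(FPKM + 1). Some were called with a pseudocount of 0.1 and by limma-voom. For full-length NFIA against control at day 7 these were Itgae (2.61 and 3.25), Itgb8 (-1.99 and -2.26) and Itga11 (-1.93 and -2.18), besides Itga1. Itgav, the αv subunit of several RGD receptors, had group means of 16.7 to 45 FPKM, and Itgb5 of 14.4 to 84.3 FPKM. The highest sample of Itga2b was at 2.14 FPKM, of Itgb2 at 1.88, of Itgb6 at 2.6 and of Itgb8 at 3.49. Lama5 had log2 fold changes of -1.44 ± 0.05 at day 0 and -1.18 ± 0.09 at day 7 with full-length NFIA, and -0.22 ± 0.05 and 0.08 ± 0.09 with Δpro#3. Itgae, a subunit of lymphocytes in epithelia, passed the filter at day 7 through full-length NFIA cells, at 0.172, 0.117 and 0.112 FPKM in control, 1.57, 1.36 and 1.07 FPKM with full-length NFIA and 0.405, 0.199 and 0.197 FPKM with Δpro#3. Itgb4, the β4 partner of α6, had a highest group mean of 1.17 FPKM. The 9 genes tested at no time point had highest group means of 1.04 (Lama1), 0.378 (Lama3), 0.312 (Itgad), 0.292 (Lamc3), 0.211 (Itgam), 0.162 (Itgal), 0.142 (Itga2), 0.138 (Itga9) and 0.0288 FPKM (Itgax). Lama1, an early laminin chain, was at 1.28, 0.887 and 0.95 FPKM in control, 0.132, 0.107 and 0.147 FPKM with full-length NFIA and 0.242, 0.11 and 0.101 FPKM with Δpro#3 at day 7 and failed the filter because its levels were low elsewhere.

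Of 39 other genes of the pathway (linkers and kinases, other ligands, and laminin partners or other laminin receptors), 35 were tested. In full-length NFIA cells at day 0, 1 was higher than in control and 4 were lower, where 2.46% and 2.78% of all genes were. The sarcoglycan gene Sgcd was higher (3.08 ± 0.04), and the lower ones were nephronectin (Npnt, -3.16 ± 0.05), a ligand of α8β1, Itgb1bp2, which encodes the muscle protein melusin that binds β1 (-2.59 ± 0.07), vitronectin (Vtn, -1.80 ± 0.06, tested through control alone) and the kinase gene Ptk2b (-1.77 ± 0.07). With Δpro#3, Lims2 (2.21 ± 0.05) and Sgcd (1.94 ± 0.04) were higher, and Npnt (-2.41 ± 0.05) and Itgb1bp2 (-2.35 ± 0.07) lower, 2 each way, where 0.859% and 1.32% of all genes were. At day 7, full-length NFIA cells had Sgcd higher (1.83 ± 0.09) and Npnt (-2.53 ± 0.11), Itgb1bp2 (-2.42 ± 0.10), osteopontin (Spp1, -2.37 ± 0.07) and Thbs2 (-1.81 ± 0.10) lower, 1 and 4 of the 35, where 4.87% and 3.3% of all genes were. Δpro#3 cells at day 7 had Vtn higher (1.90 ± 0.13) and none lower, where 0.933% and 0.503% of all genes were.

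Between the constructs, Lims2 (1.62 ± 0.05) and Nid1, whose product nidogen binds laminin (1.71 ± 0.03), were higher with Δpro#3 than with full-length NFIA at day 0, and none of the 35 was lower, where 0.925% and 1.12% of all genes were. At day 7, Itgb1bp2 (2.46 ± 0.10) and Npnt (2.38 ± 0.11) were higher and Vcam1, which encodes a ligand of α4, was lower (-1.94 ± 0.08), where 2.6% and 3.7% of all genes were. Under forskolin, full-length NFIA cells had 3 of the 35 higher than control and 3 lower, where 4.25% and 3.77% of all genes were. Sgcd (1.78 ± 0.09), Thbs1 (2.43 ± 0.08) and Vcam1 (1.78 ± 0.08) were the higher ones, and Itgb1bp2 (-2.47 ± 0.08), Npnt (-2.92 ± 0.11) and Thbs2 (-2.07 ± 0.07) the lower ones. Δpro#3 cells had Vtn higher than control (1.85 ± 0.13) and none lower, where 0.866% and 0.685% of all genes were. Against full-length NFIA they had Itgb1bp2 (2.63 ± 0.08) and Npnt (2.504 ± 0.11) higher and Thbs1 (-1.96 ± 0.08) and Vcam1 (-1.79 ± 0.08) lower, where 2.89% and 3.31% of all genes were. From day 0 to day 7, 5 of the 35 were higher and 6 lower in control, 3 and 1 with full-length NFIA, and 4 and 4 with Δpro#3. Of all genes, 3.65% were higher and 3.05% lower in control, 5.38% and 4.71% with full-length NFIA, and 3.91% and 2.93% with Δpro#3. Itgb1bp2 and Npnt rose and tenascin C (Tnc) fell in all 3 kinds of cells. With forskolin, Thbs1 was the 1 gene called in control (-2.57 ± 0.11) and in Δpro#3 cells (-2.43 ± 0.11), and with full-length NFIA it was at -0.11 ± 0.11, where none of the 35 was called. Of all genes, 0.392%, 0.588% and 0.743% were called in those cells, in that order.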

How the data were processed

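Polyadenylated RNA of 27 samples was sequenced with a stranded kit. According to the methods and processing notes, the authors aligned reads to mm9 with STAR 2.5.3a, used only reads with a unique position, counted them by strand and deposited FPKM values per gene. These are not scaled between samples. FPKM times gene length, divided by its smallest value above 0 in the sample, lay within 0.02 of a whole number of fragments for 99.972% to 100% of genes and was rounded, and these fragments were used for depth and for limma-voom alone.

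Groups came from the sample titles. The analysis used R 4.3.3 with limma 3.58.1 (moderated variance with a trend) on log2(FPKM + 1) for genes with a mean of 0.5 FPKM or more in the fitted samples. Fits held the 9 samples of a time point, or 18 samples for day 7 against day 0 and for forskolin. A gene was called at a Benjamini-Hochberg adjusted p under 0.05 over all genes and over 3-fold, and interactions at the adjusted p alone. Ratios used exact permutation tests. The scripts were tested on simulated data. Promoters came from RefSeq (GRCm38.p6), and gene coordinates from mm9 annotation. Values per sample are given for genes called between constructs, for the 2 largest changes each way between days, and for Itgb1, Itga5, Itga6, Itga7, Lama2 and Lamc1. Itgae, Itgb3 after forskolin and Lama1 were added after their values were seen. The genes and lists were chosen with earlier results of these data known. Single values of some genes are not reported here, and the pathway and marker lists are counted without them.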

Additional observations from a re-analysis of the deposited data

Results flagged for a closer look

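The difference of a construct from control varied between the days, or the response to forskolin varied between constructs and control, by a test of the difference itself (limma, 3 samples per group, log2 scale). Of the genes past an adjusted p of 0.05, the 3 with the largest difference are given. For full-length NFIA, day 7 minus day 0, they were Itga3 (-2.49), Lamb1 (2.19) and Itga1 (-2.12). For Δpro#3 they were Itga8 (-1.64, a gene that passed the minimum in this fit only through control at day 7, with the other 5 groups at 0.415 FPKM on average), Itga10 (1.55) and Itga3 (-1.36). For the forskolin response of full-length NFIA cells minus that of control they were Itgb3 (1.46), Itgb8 (1.08) and Lama4 (-0.85). For the response of Δpro#3 cells minus that of control they were Itga11 (-0.75), Itgb3 (0.69) and Lamb1 (0.36). Lamb1 no longer passed when any 1 of 5 samples was left out (0.33 to 0.35, adjusted p = 0.0586 to 0.0800). Samples that stand apart were not tested for in groups of 3.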

How the results depend on the processing

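Counts of integrin and laminin genes called are given for full-length NFIA against control, Δpro#3 against control and Δpro#3 against full-length NFIA, in that order where all 3 moved by over 1.5 times. With a 2-fold limit, the counts were 10, 5 and 5 at day 0, and for full-length NFIA against control and Δpro#3 against full-length NFIA 12 and 8 at day 7 and 11 and 8 with forskolin. Between days the 2-fold counts were 8 in control, 11 with full-length NFIA and 6 with Δpro#3, and forskolin gave 2 with full-length NFIA. In these comparisons 5.88% to 17.6% of all genes were called between constructs, 16.9% to 20.9% between days and 3.21% with forskolin, against 2.05% to 8.17%, 6.7% to 10.1% and 0.743% at 3-fold. With a pseudocount of 0.1, both Δpro#3 comparisons at day 0 gave 4, full-length NFIA against control gave 9 at day 7 and 9 with forskolin, Δpro#3 against full-length NFIA gave 7 and 7, the days gave 4 in control and 4 with Δpro#3, and forskolin gave 1 with full-length NFIA, with 4.46% to 12.7%, 11.3% to 11.4% and 1.5% of all genes called. Limma-voom gave 4 and 4 at day 0, 9 and 8 at day 7, 9 and 10 with forskolin, 4, 8 and 4 between days, and 2 for forskolin with full-length NFIA, with 4.85% to 13.3%, 12.4% to 16.2% and 1.79% of all genes called. A minimum mean of 5 FPKM, which tests fewer genes, gave 2 for full-length NFIA against control and 0 for Δpro#3 against full-length NFIA at day 0, 3 and 0 against control at day 7, and 3 and 0 with forskolin. It gave 1 between days in control and 1 with Δpro#3, 13 and 11 for the interactions with day, and 7 and 3 for those with forskolin, with 1.54% to 8.77% of all genes called between constructs, 6.88% to 6.94% between days, 74.3% and 46.8% for the interactions with day and 33.1% and 5.47% for those with forskolin. After median-ratio scaling, Δpro#3 against control with forskolin gave 1 (1.45% of all genes). Leaving out 1 sample at a time gave 1 to 2 for that comparison, with 1.49% to 1.62% of all genes called where it gave 1. The forskolin response of Δpro#3 cells relative to control gave 3 to 7, with 3.17% to 3.9% of all genes where it gave 3. Of 2626 alternatives for 132 values of named genes, with each sample left out in turn, 2586 kept direction and side of the limit, 14 lost and 22 gained the call, and 4 turned sign. Those 4 were Itga4 between the constructs at day 7 without replicate 2 of full-length NFIA (-0.017, with a range up to 0.25 over the samples left out), Itga6 with full-length NFIA at day 7 without replicate 3 of control (-0.000648, with a range up to 0.11 over the samples left out), Itga7 with full-length NFIA at day 7 after scaling (0.035), and Lamc1 from day 0 to day 7 with Δpro#3 after scaling (0.12). The cause was not tested. Same-numbered samples of different constructs did not deviate together within a time point (mean correlation 0.0139, -0.0314 and -0.00195 at the 3 time points). With 3 samples per group this cannot show that the numbers do not pair samples. Pairing across days, or of samples with and without forskolin, was not tested. The replicate block gave 18 genes for the interaction of Δpro#3 with day in place of 19 and changed no call of a named gene. Depth limits the low genes most, such as Itga1 in control.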
